A study of Homo sapiens with 9 samples.

Results

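The genes examined were 6 Wnt ligands (WNT3, WNT5A, WNT5B, WNT7B, WNT9A and WNT10A), the 2 genes that make a Wnt protein ready for secretion (PORCN and WLS) and 2 Dickkopf genes (DKK1 and DKK3). They were matched by symbol and are 10 of the 58219 genes quantified. Total RNA came from MDA-MB-231, an established human breast cancer line classed as triple receptor negative, grown in medium with serum. The study manipulated LYPLA1, the gene of the depalmitoylating enzyme APT1, to ask how daughter cells divide Notch and Wnt signalling. The 9 libraries formed 3 groups of 3: control cells with a lentiviral scramble RNA, shAPT1 cells with a stable lentiviral short hairpin against APT1 selected in puromycin, and APT1wt cells with stable lentiviral expression of wild-type APT1. Both lines were compared with the same scramble cells, and no line with an empty expression vector was analysed here. Separate cultures behind the 3 libraries of each group are not stated, and p-values cover the spread among libraries alone, part of which may be technical.

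Wnt proteins are secreted, lipid-modified signals. Porcupine, the enzyme encoded by PORCN, attaches palmitoleate to a serine of the Wnt protein in the endoplasmic reticulum, and Wntless, the cargo receptor encoded by WLS, carries the acylated protein to the cell surface. Outside the cell, Wnt binds Frizzled together with LRP5 or LRP6 and stabilises beta-catenin, or acts through Frizzled and ROR or RYK receptors without beta-catenin. Dickkopf-1, encoded by DKK1, binds LRP5 and LRP6 and blocks the beta-catenin branch, and DKK1 is itself a known target of that branch in several tissues.

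The libraries held 12381931 to 18667383 estimated reads, and libraries of a group differed beyond counting noise (chi-square per gene 2.10 to 18.3). Levels of LYPLA1 were 87.1, 92.7 and 80.5 TPM (control), 38.2, 30.5 and 36.7 (shAPT1) and 169, 171 and 170 (APT1wt), so the 3 groups did not overlap and followed their labels. TPM is a level corrected for transcript length and for the size of the library. In APT1wt the LYPLA1 value can include reads of the introduced gene. On gene-summed reads (edgeR, described below) the log2 fold change over control was -1.29 ± 0.07 in shAPT1 and 0.60 ± 0.06 in APT1wt. The latter is a 1.52-fold rise, a smaller step than in TPM. ESR1 and PGR did not exceed 0.22 TPM in any library, while ERBB2 lay between 27.5 and 37.3 TPM, and the mesenchymal marker VIM between 1801 and 2373 TPM. The mesenchymal list (VIM, CD44, MSN, CAV1 and AXL) summed to 4001 to 4553 TPM in control, 4026 to 4338 in shAPT1 and 3608 to 3910 in APT1wt. By the edgeR test described below, CD44, AXL and MSN fell in shAPT1, and MSN, VIM and AXL fell in APT1wt. CAV1 rose in both lines. Of the markers of other cells, PTPRC, CD3E, CDH5, DCN and LUM stayed at or below 0.42 TPM, but other markers moved with the groups (edgeR test described below). The leukocyte list summed to 632 to 747 TPM in control, 367 to 389 in shAPT1 and 395 to 433 in APT1wt. Of its genes, CD74, HLA-DRA and CD68 fell in both lines, while LCP1 rose in both (log2 fold change 1.94 and 2.56). The endothelial list summed to 41.3 to 50.7 TPM in control, 59.3 to 77.4 in shAPT1 and 102 to 106 in APT1wt. ESAM made up most of that sum and rose in both lines, TIE1 rose in shAPT1 and KDR fell in APT1wt. The fibroblast list summed to 17.95 to 20.7, 13.3 to 22.8 and 20.1 to 24.7 TPM; PDGFRB and COL1A1 rose in both lines, and in shAPT1 COL1A2 rose and FBLN1 fell. The luminal epithelial list summed to 508 to 528 TPM in control, 637 to 921 in shAPT1 and 699 to 713 in APT1wt, and KRT8 and KRT18 rose in both lines. CDH1 was also called higher in both, but its TPM was low (0.383 to 2.76) and overlapped in all 3 groups. In bulk RNA, fewer cells of a type and less RNA per cell cannot be told apart, and the part of these shifts in the results below was not tested.

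DKK1 is shown first by sequence because it is the most abundant of the 10 genes and passed the test in all 3 comparisons. The 250 bases before its RefSeq start lie at chr10:52314031-52314280 (GRCh38.p14, plus strand). They are outside any annotated UTR, within the span of the antisense gene PRKG1-AS1. Capitals mark matches to 3 short motifs searched on both strands. The first is the core of TCF/LEF sites, CTTTGA. Read on the other strand it is TCAAAG. The next is the core of TEAD sites, GGAATG. The last is the TATA box, TATAAA. No match overlaps another.
DKK1 promoter: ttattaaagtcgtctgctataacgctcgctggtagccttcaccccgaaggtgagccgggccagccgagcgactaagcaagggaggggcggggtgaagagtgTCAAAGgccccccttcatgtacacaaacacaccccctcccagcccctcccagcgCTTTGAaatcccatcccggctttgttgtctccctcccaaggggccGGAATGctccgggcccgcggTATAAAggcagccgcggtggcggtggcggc
The TCF/LEF letters start 149 bases before the start on the minus strand and 95 bases before it on the plus strand. GGAATG starts 50 bases and TATAAA 30 bases before it. Among all 35116 RefSeq windows of the same length, 11.2% held the TCF/LEF letters, 11.9% GGAATG and 10.7% TATAAA. The motifs were chosen after the sequence had been seen, and a match describes letters, not binding.

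The second sequence bears on how reads of the ligands were assigned. WNT5A and WNT5B, the closest relatives among the 6 ligands, share 1 identical run of 35 bases between their main transcripts (WNT5A-201 and WNT5B-005). It lies in the coding part of the last exon of both, at chr3:55470145-55470179 (minus strand) for WNT5A and chr12:1646165-1646199 (plus strand) for WNT5B, in GENCODE 29 on GRCh38.
WNT5A and WNT5B shared run: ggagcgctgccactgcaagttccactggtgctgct
This run holds 5 of the 7351 distinct 31-base words of WNT5A, or 0.068%, and WNT5A shared no word with any other gene outside it. Words shared with other genes were at most 0.881% of the gene for the other members, except 8.39% for DKK1 (PRKG1-AS1), 3.85% for WNT7B and 1.82% for WLS (GNG12-AS1).

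DKK1 rose in shAPT1, while the ligand WNT7B and PORCN fell, and the ligand WNT5A, close to 0 elsewhere, was detected at a higher level there. DKK1 and the ligand WNT10A rose in APT1wt, and PORCN fell there as well. Between the lines themselves, 6 of the 10 genes differed: DKK1 and WNT5A were higher in shAPT1, and WNT5B, WNT7B, WNT9A and WNT10A were higher in APT1wt. The test was edgeR's quasi-likelihood test over all 15233 genes that passed a filter on low counts, with Benjamini-Hochberg adjustment at 0.05. Of the 10 genes, 4 passed in shAPT1 against control beside 24.4% of all tested genes, 3 in APT1wt against control beside 23.4%, and 6 between the lines beside 25.1%. All 10 passed the filter, WNT5A only through its shAPT1 libraries, so it had to differ and its calls support nothing. Among the 9 others, 3 passed in shAPT1, 3 in APT1wt and 5 between the lines. The APT1wt count depended on single libraries. Leaving out 1 library gave 3 to 5 of the 10 genes, beside 2298 to 4825 calls over all genes (3568 with all libraries). The 5 of 10 came without shAPT1 replicate 1, and the 2298 calls without APT1wt replicate 3. Scaling by library totals alone, in place of TMM, moved the share of all calls between the lines that were higher in shAPT1 from 50.7% to 66.4%. The TPM values of the groups did not overlap for 6 of 10 genes in shAPT1 against control (31.1% of all tested genes), 5 in APT1wt against control (35.0%) and 6 between the lines (32.9%). WNT5A is among them in all 3 comparisons. The filter fixed its separation in those with shAPT1, and in APT1wt against control it rests on 1, 0 and 2 reads against 5, 4 and 2. The median log2 fold change of the 10 genes was -0.07 in shAPT1 and 0.15 in APT1wt, and that of all tested genes was -0.0039 and -0.0040.

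**Figure D1:**
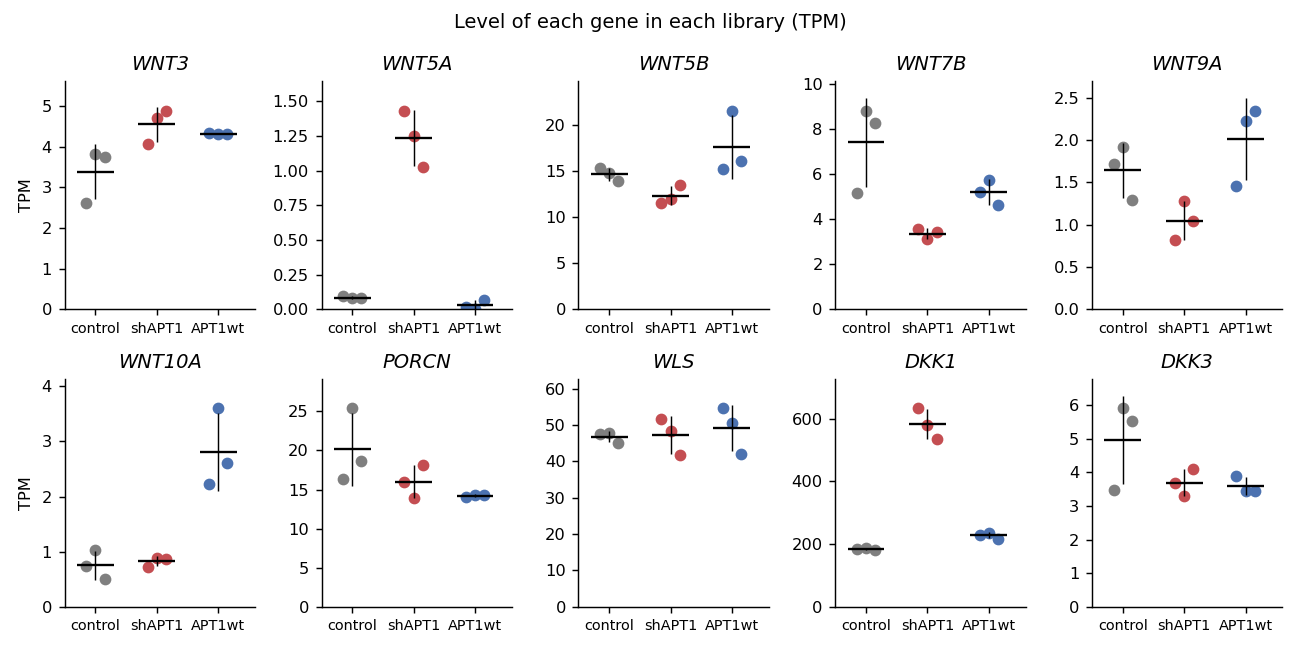
TPM of each of the 10 genes in each library (points, 3 per group), with the group mean (horizontal bar) and SD (vertical line); each panel starts at 0 and has its own scale. DKK1 and WNT5A stand apart in shAPT1 (537 to 633 and 1.02 to 1.43 TPM), WNT10A in APT1wt (2.22 to 3.60 TPM), and WLS overlaps in all 3 groups.

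The ligand WNT5A, which signals mainly without beta-catenin, was close to silent outside shAPT1. Its level was 0.0924, 0.0770 and 0.0808 TPM in control, 1.43, 1.25 and 1.02 in shAPT1, and 0.0138, 0 and 0.0677 in APT1wt. Behind these stood 5, 4 and 2 reads in control, 75, 82 and 71 in shAPT1, and 1, 0 and 2 in APT1wt. All 3 shAPT1 libraries were far above the other 6. The share of reads in shAPT1 was 18.1 times that in control (95% counting interval 9.94 to 36.8) and 78.4 times that in APT1wt (26.5 to 383). Counting intervals cover counting error only. The fitted log2 fold change was 4.12 ± 0.36 (SE) over control and 6.08 ± 0.44 over APT1wt, given as a description without a test, since the filter on low counts kept WNT5A only because it was high in shAPT1. In APT1wt the read share was 0.231 times that of control (0.0414 to 0.876), from 3 reads against 11, and the change did not pass (adjusted p = 0.076). Without control replicate 3 that adjusted p was 0.050 with a log2 fold change of -2.34. Even at its highest, WNT5A made up 4.84% ± 1.02 (SD, n = 3) of the summed level of the 19 Wnt ligand genes.

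WNT5A (chr3:55465715-55490539, minus strand) has 7 annotated transcripts. In shAPT1 most of its level was assigned to WNT5A-201, a coding transcript, with 1.43, 1.08 and 0.639 TPM. WNT5A-001, another coding transcript with an upstream start, took 0.385 TPM in shAPT1 replicate 3. The estimates therefore split the coding transcripts differently within the group. WNT5A-AS1, an antisense gene over the 5′ end, was listed at 0.766 and 0.546 TPM in shAPT1 replicates 2 and 3 and at 0 in the other 7 libraries. WNT5A-AS1 shared no 31-base word with WNT5A. Whether the counting used strand is not given in the sources used here.

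WNT7B (chr22:45920362-45977129, minus strand), a ligand known mainly for the beta-catenin branch, fell in shAPT1. Its level was 5.14, 8.81 and 8.25 TPM in control, 3.55, 3.11 and 3.41 in shAPT1, and 5.20, 5.75 and 4.63 in APT1wt. The shAPT1 libraries lay below all others, control replicate 1 lay among the APT1wt libraries, and control replicates 2 and 3 were highest. The log2 fold change was -0.998 ± 0.12 against control (edgeR adjusted p = 3.6e-05) and -0.78 ± 0.12 against APT1wt (adjusted p = 3.1e-04). In APT1wt against control it was -0.22 ± 0.11 and did not pass (adjusted p = 0.18). Of the 95 nearest tested genes on chromosome 22, 22 were lower in shAPT1 than in APT1wt, with a median log2 difference of -0.21, and WNT7B still passed at -0.56 after correction for them.

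The high WNT7B values of control replicates 2 and 3 went with 1 short transcript. WNT7B-005, 714 bases long, was given 2.09 and 2.47 TPM in control replicates 2 and 3 and 0 in control replicate 1 and in each APT1wt library, with at most 0.0486 TPM in shAPT1. The full-length WNT7B-001 ran at 5.14, 6.72 and 5.78 TPM in control, 3.08, 2.97 and 3.36 in shAPT1, and 5.20, 5.75 and 4.63 in APT1wt. On this transcript too, the shAPT1 libraries lay below the others.

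WNT10A (chr2:218880363-218899581, plus strand), a beta-catenin branch ligand with known roles in skin appendages and teeth, rose in APT1wt. It stood at 0.743, 1.03 and 0.496 TPM in control, 0.726, 0.889 and 0.871 in shAPT1, and 2.22, 3.60 and 2.61 in APT1wt. Its estimated reads were few, 51 in control, 65 in shAPT1 and 211 in APT1wt over 3 libraries each. The APT1wt libraries were above the other 6, which overlapped. Over control its log2 fold change was 1.84 ± 0.26 (edgeR adjusted p = 1.3e-04), and shAPT1 against APT1wt gave -1.73 ± 0.25 (adjusted p = 1.7e-04). In shAPT1 against control it was 0.11 ± 0.29 (adjusted p = 0.83), with a 95% interval of -0.52 to 0.74. All of the level was in the full-length WNT10A-001, apart from 0.568 TPM of the non-coding WNT10A-003 in APT1wt replicate 2, where WNT10A-001 stood at 3.03 TPM.

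WNT5B (chr12:1529891-1647243, plus strand), another ligand known for signalling without beta-catenin, was the most abundant Wnt gene. It stood at 15.3, 14.7 and 13.9 TPM in control, 11.5, 11.97 and 13.5 in shAPT1, and 15.2, 21.5 and 16.0 in APT1wt. The shAPT1 libraries lay below the other 6. The difference passed between the lines (log2 fold change -0.52 ± 0.11, edgeR adjusted p = 0.003) but in neither comparison with control. Those gave -0.24 ± 0.11 in shAPT1 (adjusted p = 0.13) and 0.28 ± 0.11 in APT1wt (adjusted p = 0.081), the latter passing without shAPT1 replicate 1 (adjusted p = 0.048) or without APT1wt replicate 1 (adjusted p = 0.037). The coding transcript WNT5B-005 carried most of the level, with 10.7 to 11.1 TPM in control, 10.3 to 11.1 in shAPT1 and 12.6 to 15.3 in APT1wt. On that transcript control and shAPT1 overlapped. WNT5B overlaps FBXL14 on the other strand, whose fold changes did not pass (adjusted p = 0.22, 0.42 and 0.73).

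WNT9A (chr1:227918656-227947898, minus strand) is a ligand expressed around forming joints among other tissues. It was listed at 1.72, 1.92 and 1.29 TPM in control, 0.816, 1.28 and 1.04 in shAPT1, and 1.45, 2.23 and 2.35 in APT1wt. Every shAPT1 value was below every other value, the nearest pair being 1.28 in shAPT1 and 1.29 in control. The difference between the lines passed (log2 fold change -0.99 ± 0.23, edgeR adjusted p = 0.0067). The comparison of shAPT1 with control gave -0.68 ± 0.24 and missed the threshold (adjusted p = 0.055). Leaving out 1 library made it pass in 3 cases: control replicate 3 (adjusted p = 0.039), shAPT1 replicate 2 (adjusted p = 0.038) and APT1wt replicate 1 (adjusted p = 0.035). In APT1wt against control the value was 0.31 ± 0.23 (adjusted p = 0.36).

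WNT3 (chr17:46762506-46833154, minus strand), a ligand of the beta-catenin branch, passed in none of the 3 comparisons. It stood at 2.61, 3.82 and 3.75 TPM in control, 4.08, 4.72 and 4.89 in shAPT1, and 4.33, 4.33 and 4.32 in APT1wt. All 6 libraries of the lines were above the 3 controls. The log2 fold change was 0.37 ± 0.14 in shAPT1 (edgeR adjusted p = 0.066) and 0.37 ± 0.14 in APT1wt (adjusted p = 0.069), so neither passed. Without shAPT1 replicate 1 both did (adjusted p = 0.024 and 0.037). The direct difference between the lines was 0.00053 ± 0.13 (adjusted p = 0.998), with a 95% interval of -0.28 to 0.28. All of the level was in 1 transcript, WNT3-001.

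**Figure D2:**
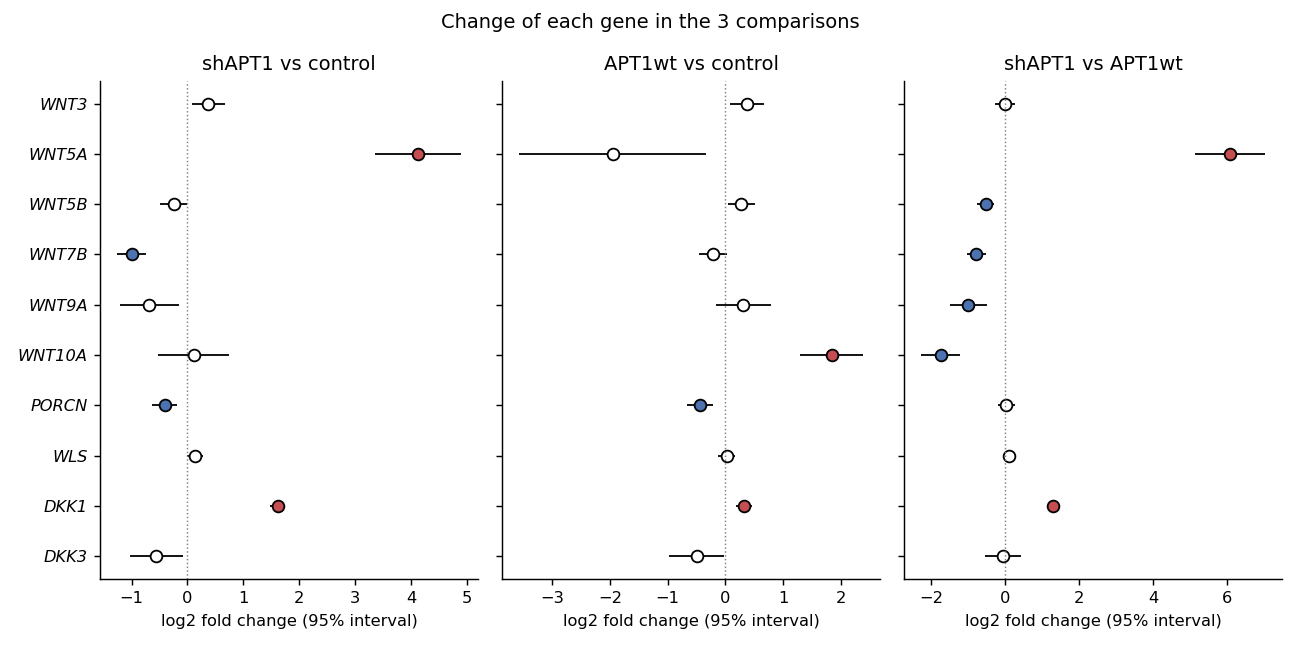
Log2 fold change of each gene (circle) with its 95% interval (line) in the 3 comparisons; red circles passed the test as higher in the group named first, blue as lower, and white did not pass. DKK1 is red in all 3 panels, WNT5A in both panels with shAPT1 (where the filter on low counts fixed its call), and WNT10A is red in APT1wt against control and blue in shAPT1 against APT1wt.

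As a pool, the 19 Wnt ligand genes summed to 31.04 ± 3.6 TPM (SD, n = 3) in control, to 25.7 ± 1.2 TPM in shAPT1 and to 34.0 ± 4.8 TPM in APT1wt. The 6 ligands described here made up 86.6% to 92.1% of it in control, 89.6% to 91.3% in shAPT1 and 92.4% to 95% in APT1wt. WNT5B was 47.6% ± 6.5 of the pool in control, 47.8% ± 1.7 in shAPT1 and 51.4% ± 2.8 in APT1wt. WNT7B was 23.6% ± 4.7 in control, 13.1% ± 1.2 in shAPT1 and 15.4% ± 1.6 in APT1wt. WNT3 took 10.9% ± 1.6, 17.7% ± 1.0 and 12.9% ± 1.7, and WNT10A took 2.41% ± 0.67, 3.22% ± 0.27 and 8.18% ± 0.90. These shares were not tested and depend on one another through the pool total. WNT3 took a larger share in shAPT1 than in APT1wt, although its own level did not pass between the lines (edgeR adjusted p = 0.998). Of the 13 other ligands only WNT10B and WNT2B passed the filter on low counts. WNT10B, the next most abundant, stood at 1.94, 3.88 and 1.73 TPM in control, with control replicate 2 high, as for PORCN. WNT2B passed the test in shAPT1 (log2 fold change 1.00 ± 0.34, edgeR adjusted p = 0.043) at 0.333 to 0.621 TPM.

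**Figure D3:**
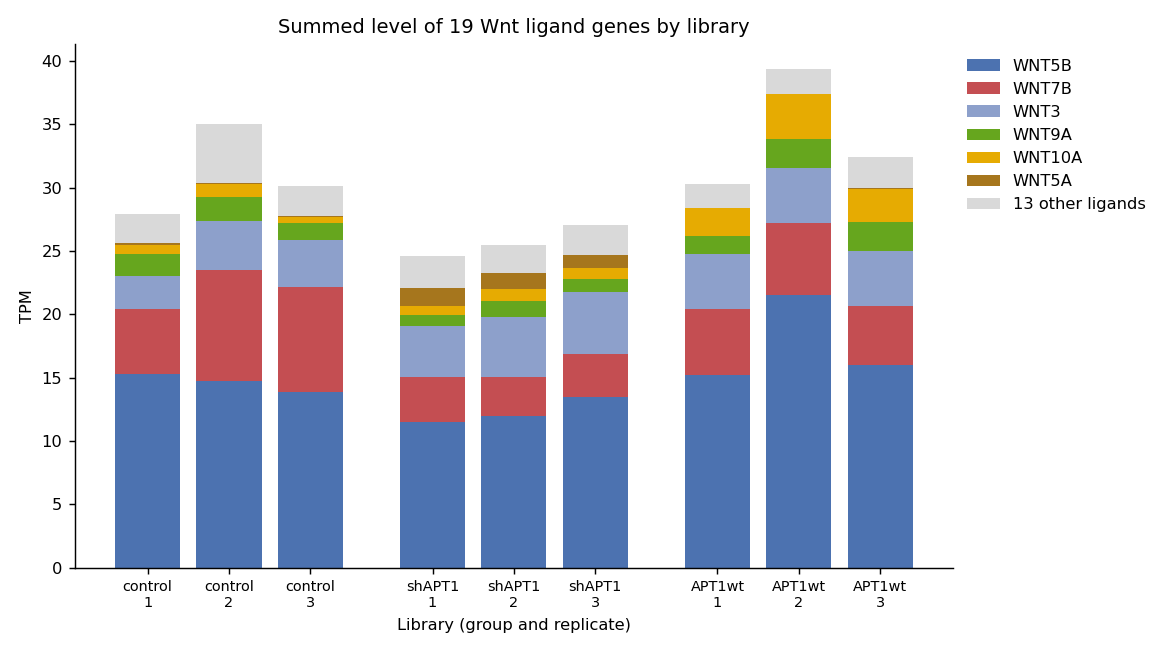
Stacked TPM of the Wnt ligand genes in each of the 9 libraries, with the 6 ligands described in colour and the sum of 13 others in grey. WNT5B fills 41.9% to 54.7% of each bar, the WNT7B segment is shorter in shAPT1 (3.11 to 3.55 TPM), and the WNT10A segment is tallest in APT1wt (2.22 to 3.60 TPM).

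PORCN, whose product acylates all Wnt proteins, was lower than control in both lines. It was listed at 16.4, 25.4 and 18.6 TPM in control, 15.9, 13.9 and 18.1 in shAPT1, and 14.03, 14.3 and 14.3 in APT1wt. Control replicate 2 was the highest library, control and shAPT1 overlapped, and the APT1wt libraries lay below all controls. The log2 fold change was -0.41 ± 0.11 in shAPT1 (edgeR adjusted p = 0.011) and -0.44 ± 0.11 in APT1wt (adjusted p = 0.0076). Without control replicate 2 the shAPT1 value was -0.34 (adjusted p = 0.061). The lines did not differ from each other beyond their spread (0.03 ± 0.11, adjusted p = 0.85), with a 95% interval of -0.19 to 0.26.

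The calls for PORCN moved with the genes around it. PORCN lies at chrX:48508962-48520814 (plus strand), and of the 100 tested genes nearest to it 31 were lower and 1 higher in shAPT1, and 65 lower and 1 higher in APT1wt. Their median log2 fold change was -0.23 in shAPT1 and -0.51 in APT1wt, beside -0.41 and -0.44 for PORCN itself. After subtracting, in each library, how far the closest 50 tested genes upstream and 50 downstream lay from their means (as a median), PORCN stood at -0.13 in shAPT1 (limma adjusted p = 0.40) and 0.05 in APT1wt (adjusted p = 0.79). Neither call remained. The other members called against control had neighbours whose medians lay between -0.09 and 0.14, and these members passed after the same correction. For WNT5A the filter on low counts fixed that call. In shAPT1, 19 of the 100 neighbours of DKK1 were higher and 1 lower, and 3 of the 95 of WNT7B were higher and 17 lower. In APT1wt, 16 neighbours of DKK1 were higher and 7 lower, and 20 of WNT10A were higher and 3 lower. Over all tested genes these shares were 12.8% and 11.6% in shAPT1 and 11.8% and 11.6% in APT1wt.

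**Figure D4:**
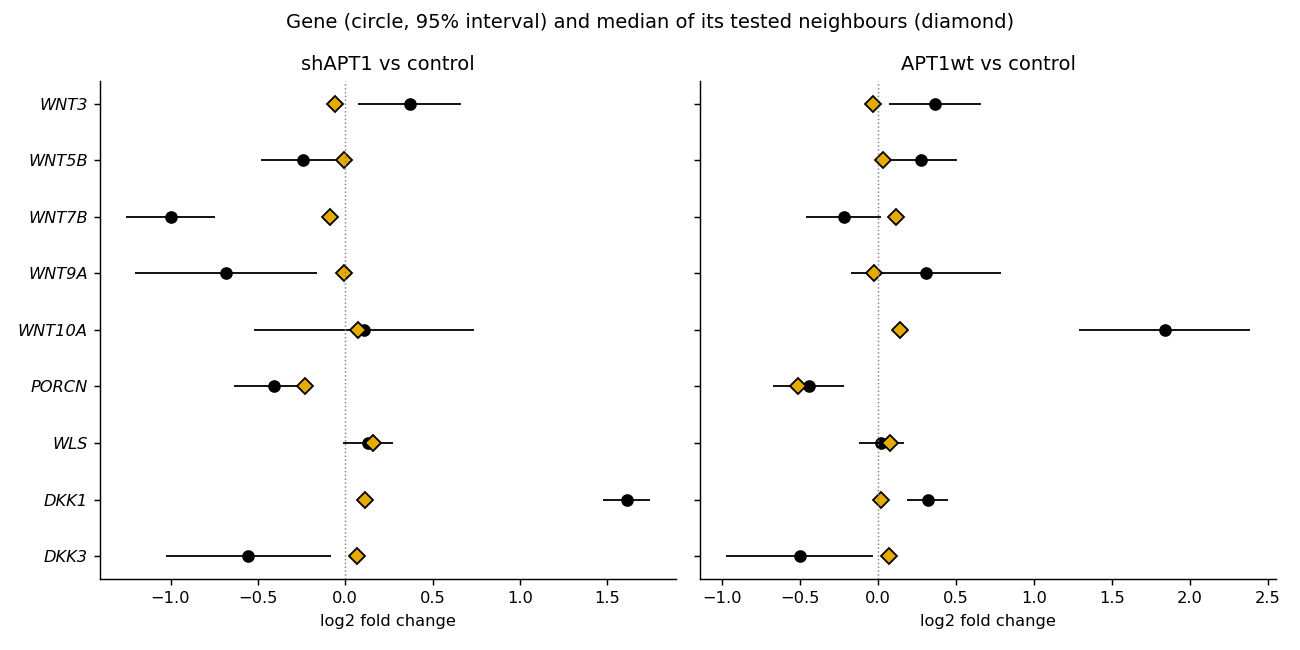
Log2 fold change of each gene (black circle, 95% interval) and the median of the tested genes around it on the chromosome (yellow diamond, up to 50 on each side) in shAPT1 and APT1wt against control; WNT5A is left out because its change exceeds the axis. PORCN is the gene whose diamond is farthest below 0 (-0.23 and -0.51).

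Much of the PORCN level was assigned to transcripts without a coding annotation. Protein-coding transcripts took 38.0% to 39.1% of it in control, 45.5% to 47.9% in shAPT1 and 33.5% to 52.6% in APT1wt. Their level was 7.75 ± 1.92 TPM (SD, n = 3) in control, 7.47 ± 1.06 TPM in shAPT1 and 6.27 ± 1.38 TPM in APT1wt, and on them alone PORCN did not pass (log2 fold change -0.20, adjusted p = 0.49, and -0.31, adjusted p = 0.29). The coding transcript PORCN-010 led with 5.10, 6.65 and 6.21 TPM in control. The height of control replicate 2 came in part from PORCN-013, a transcript marked for nonsense-mediated decay, at 5.44 TPM there and at most 1.64 TPM in the other 8 libraries.

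WLS (chr1:68098473-68233120, minus strand), the cargo receptor gene, passed in none of the 3 comparisons. It stood at 47.6, 47.9 and 45.0 TPM in control, 51.7, 48.5 and 41.6 in shAPT1, and 54.5, 50.5 and 42.1 in APT1wt, and all 3 groups overlapped. Its log2 fold change was 0.13 ± 0.07 in shAPT1 (edgeR adjusted p = 0.18; 95% interval -0.01 to 0.27) and 0.02 ± 0.07 in APT1wt (adjusted p = 0.86; -0.12 to 0.16). The sign of both changes turned under some settings of the processing. The main coding transcript WLS-001 ran from 28.1 to 30.2 TPM in control, 32.6 to 36.0 in shAPT1 and 27.7 to 29.3 in APT1wt, so shAPT1 lay above the others on that transcript. The short transcript WLS-012, 555 bases long, took 0.942 TPM in shAPT1 replicate 3 and 9.03 to 17.1 TPM in the other 8 libraries.

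Of 8 other genes of Wnt export and retrieval (p24 cargo receptors and retromer), all were tested, and 2 rose in shAPT1 and 1 in APT1wt. Of all tested genes, 12.8% were higher and 11.6% lower in shAPT1, and 11.8% higher and 11.6% lower in APT1wt, so these counts are near that background. The p24 genes TMED5 (log2 fold change 0.30 ± 0.07, edgeR adjusted p = 0.0088) and TMED2 (0.25 ± 0.06, adjusted p = 0.0091) rose in shAPT1. TMED10 rose in APT1wt (0.16 ± 0.05, adjusted p = 0.039). The list's median was 0.11 in shAPT1 and 0.03 in APT1wt.

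DKK1 (chr10:52314296-52318042, plus strand) was the most abundant of the 10 genes in every group and rose in both lines, more in shAPT1. Its level was 185, 188 and 182 TPM in control, 633, 581 and 537 in shAPT1, and 230, 237 and 218 in APT1wt. The 3 groups did not overlap, and the spread within a group was small beside the steps between them. The log2 fold change was 1.61 ± 0.06 in shAPT1 (edgeR adjusted p = 1.1e-09), a 3.05-fold rise, and 0.32 ± 0.06 in APT1wt (adjusted p = 0.002), a 1.25-fold rise. The lines differed by 1.29 ± 0.06 (adjusted p = 5.8e-09). LYPLA1 moved in opposite directions in the 2 lines while DKK1 rose in both. The call in APT1wt ended when the test was set against a change of 1.5-fold.

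The rise of DKK1 was seen on its coding transcript. DKK1-003, the only protein-coding model, stood at 130, 141 and 129 TPM in control, 445, 431 and 409 in shAPT1, and 162, 168 and 166 in APT1wt. It made up 69.9% to 76.2% of the gene in every library. The non-coding DKK1-001 moved with it, from 29.8 to 31.3 TPM in control to 88.2 to 147 in shAPT1 and 34.6 to 48.9 in APT1wt. PRKG1-AS1, the antisense gene over the 5′ end, had 3.66, 2.96 and 4.09 TPM in control, 7.11, 7.46 and 5.57 in shAPT1, and 4.22, 4.40 and 3.11 in APT1wt. It rose in shAPT1 as well (log2 fold change 0.82 ± 0.23, adjusted p = 0.017). Without knowing whether strand was used, reads of the shared bases cannot be told apart; PRKG1-AS1 was 1.04% to 2.25% of the DKK1 level.

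Set against the ligands, DKK1 mRNA was 6.01 ± 0.63 times the summed Wnt pool in control, 22.8 ± 2.9 times in shAPT1 and 6.77 ± 0.78 times in APT1wt (ratio of TPM, SD, n = 3). Between control and shAPT1 the mean of DKK1 went from 185 to 583 TPM and that of the pool from 31.04 to 25.7 TPM.

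DKK3 (chr11:11963106-12009769, minus strand), a divergent Dickkopf gene whose product does not block LRP6 as DKK1 does, was low and did not pass in any comparison. It was listed at 3.48, 5.90 and 5.52 TPM in control, 3.67, 3.29 and 4.11 in shAPT1, and 3.89, 3.43 and 3.45 in APT1wt. The groups overlapped through control replicate 1. The log2 fold change was -0.56 ± 0.22 in shAPT1 (edgeR adjusted p = 0.082), -0.50 ± 0.22 in APT1wt (adjusted p = 0.12) and -0.05 ± 0.23 between the lines (adjusted p = 0.89; 95% interval -0.54 to 0.43). Coding transcripts took 0% to 20.6% of the TPM level across the 9 libraries. In reads, of which a longer transcript gives more at the same TPM, the coding DKK3-001 had 32 in control, 9 in shAPT1 and 23 in APT1wt over 3 libraries each, beside 42, 39 and 42 for the non-coding DKK3-013. By TPM, DKK3-013 was the largest single transcript in each library, at 1.36 to 3.06 TPM.

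**Figure D5:**
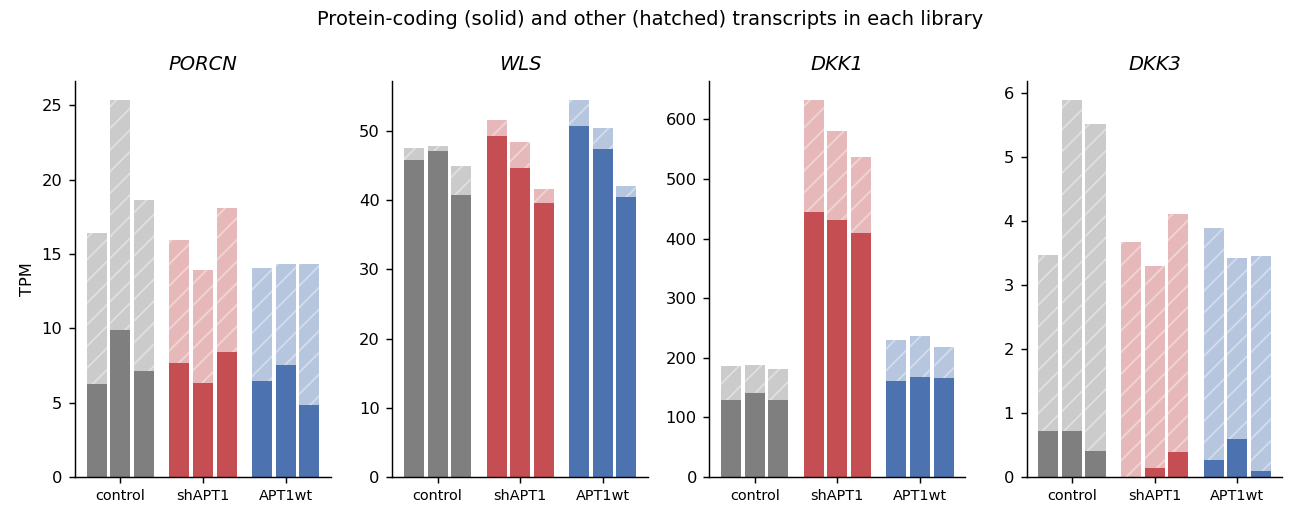
TPM of protein-coding transcripts (solid) and of all other transcripts (hatched) of PORCN, WLS, DKK1 and DKK3 in each library (3 bars per group). DKK1 keeps a coding share of 69.9% to 76.2% while its height rises in shAPT1, and the DKK3 bars are mostly hatched, with coding shares of 0% to 20.6%.

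Ordered by TPM, DKK1, WLS and PORCN led in control (185 ± 3.4, 46.8 ± 1.6 and 20.1 ± 4.7), followed by WNT5B (14.6 ± 0.70). The libraries of these 4 genes did not overlap with those of the next gene in the order. WNT7B, DKK3 and WNT3 followed, and in control the libraries of neighbours in this trio overlapped. WNT9A, WNT10A and WNT5A came last and were separate. In shAPT1 the top 4 kept their order, while WNT5A moved up to 1.24 ± 0.21 TPM and overlapped with WNT9A at 1.05 ± 0.23. In APT1wt WNT5B at 17.6 ± 3.4 TPM stood above PORCN at 14.2 ± 0.17, with no overlap between their libraries.

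Of 5 genes for receptors that Dickkopf proteins are known to bind, all tested, 1 fell in shAPT1 and 1 rose in APT1wt. Of all tested genes, 11.6% were lower in shAPT1 and 11.8% higher in APT1wt, so these counts are near that background. CKAP4, a reported DKK1 receptor at the cell surface, fell in shAPT1 (log2 fold change -0.20 ± 0.06, edgeR adjusted p = 0.016), from 135 to 145 TPM in control to 125 to 130. LRP6, the Wnt co-receptor, rose in APT1wt (0.21 ± 0.07, adjusted p = 0.039), at 10.8 to 11.3 TPM where control spanned 8.76 to 11. Of 18 other secreted Wnt antagonists 4 were tested, and 1 fell in shAPT1 and 1 rose in APT1wt, beside the same shares. SOST, which encodes sclerostin, another LRP5 and LRP6 antagonist, fell in shAPT1 (-1.08 ± 0.38, edgeR adjusted p = 0.0498). It was at most 1.36 TPM in any library. The call of DRAXIN as higher in APT1wt supports nothing, since the filter on low counts kept it through its APT1wt libraries. As a description, it had 21, 10 and 15 reads there and 3, 7 and 4 in control (log2 fold change 1.48 ± 0.44). Its level was no more than 0.23 TPM.

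Among 23 genes for Wnt receptors and the R-spondin axis, 14 were tested, of which 6 rose and 1 fell in shAPT1 (12.8% and 11.6% of all tested genes) and 4 rose and 1 fell in APT1wt (11.8% and 11.6%). The list's median log2 fold change was 0.24 and 0.15. RNF43, whose product removes Frizzled from the surface and so limits the response to Wnt, rose in both lines (2.50 ± 0.24, edgeR adjusted p = 4.5e-06, and 1.38 ± 0.26, adjusted p = 0.0015). LGR4, the R-spondin receptor, rose by 0.98 ± 0.11 (adjusted p = 1.8e-05) and 1.17 ± 0.11 (adjusted p = 3.2e-06). PTK7, a co-receptor of polarity signalling, rose by 0.90 ± 0.11 (adjusted p = 3.7e-05) and 1.64 ± 0.11 (adjusted p = 1.5e-07). FZD1 fell in both (-0.76 ± 0.08, adjusted p = 1.5e-05, and -0.58 ± 0.08, adjusted p = 1.4e-04).

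Of 17 genes of the beta-catenin arm, all tested, 1 rose and 4 fell in shAPT1 and 2 rose and 1 fell in APT1wt. Either way, 24.4% and 23.4% of all tested genes were called, and these counts are near or below that share. TCF7, a transcription factor of the pathway, rose in APT1wt (log2 fold change 0.83 ± 0.22, edgeR adjusted p = 0.015). CTNNB1, the gene of beta-catenin, rose there too (0.32 ± 0.06, adjusted p = 8.7e-04). Its level was 122 to 137 TPM in control, 137 to 155 in shAPT1 and 160 to 167 in APT1wt. In shAPT1 CTNNB1 did not pass against control (0.08 ± 0.06, adjusted p = 0.32), and it was lower than in APT1wt (-0.24 ± 0.06, adjusted p = 0.0063). DVL1, a cytoplasmic relay, fell in shAPT1 (-0.46 ± 0.10, adjusted p = 0.0029). Of 11 feedback targets 6 were tested, and 1 rose in shAPT1 (RNF43) and 2 in APT1wt (RNF43 and TCF7), beside 12.8% and 11.8% of all tested genes. AXIN2, the most widely used of these targets, stood at 0.80 to 1.25 TPM in control, 1.16 to 1.66 in shAPT1 and 1.59 to 2.57 in APT1wt. It did not pass in either line (log2 fold change 0.03 ± 0.24, adjusted p = 0.95, and 0.41 ± 0.24, adjusted p = 0.24). Of 15 genes of the planar polarity and non-canonical arm 12 were tested, of which 3 rose in shAPT1 and 4 in APT1wt, beside 12.8% and 11.8% of all tested genes. PRICKLE1, a polarity component, rose in shAPT1 (0.81 ± 0.18, adjusted p = 0.0039). The 2 lines share their control libraries, so their changes against control are not independent.

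For 5 of the members, the 3 protein-coding genes with the most similar pattern over the 9 libraries were sought, by the root-mean-square difference of centred log2 CPM among genes of similar level. WNT5A was closest to ZNF521 (difference 0.32), KBTBD8 (0.39) and NAP1L3 (0.52). The control, shAPT1 and APT1wt means of ZNF521 were 0.703 ± 0.56, 4.96 ± 0.75 and 0.0561 ± 0.026 TPM. KBTBD8 (means 0.171, 1.57 and 0.0060 TPM) and NAP1L3 (0.0561, 1.76 and 0.0318 TPM) were close to 0 outside shAPT1. Such genes can pass the filter on low counts through shAPT1 alone, as WNT5A did, so this likeness supports nothing. DKK1 was closest to CD55 (0.15), GPRC5A (0.20) and PPME1 (0.21), of which CD55 stood at 77.4 ± 3.1, 208 ± 29 and 83.2 ± 6.4 TPM. WNT10A was closest to C1QTNF1 (0.25), PGF (0.26) and PAK6 (0.28). WNT7B was closest to TADA2B (0.11), DNAH2 (0.11) and STRADB (0.13), and DKK3 to ZNF345 (0.12), DNLZ (0.13) and SNPH (0.13). These genes were picked from 1739 to 6282 candidates per member, and closeness describes the 9 libraries only.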

How the data were processed

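Total RNA of 9 MDA-MB-231 samples was sequenced. Per the submitters' processing notes, FastQC, Salmon and DESeq2 were used with build GRCh38.p10; versions, strandedness and read layout are not given in the sources used here. The deposited Salmon files give estimated counts and TPM for 199324 transcripts, with the authors' effective lengths in bases. The deposited gene table holds a signal that the authors scaled between libraries by a method not given in the sources used here. Gene sums of the estimated counts, rounded to whole numbers, were tested with edgeR 4.0.16 (filterByExpr, TMM, quasi-likelihood fit of all 9 libraries) in R 4.3.3, and TPM was summed for levels. Limma 3.58.1 and DESeq2 1.42.0 served alternatives, 22 per comparison. The fit was tested on simulated data. An exact permutation test of 3 against 3 cannot go below 0.1. GENCODE 29 matched 15189 of the 15233 tested genes by identifier, and all 79 member transcripts by identifier and length. RefSeq promoters (GRCh38.p14) matched 8 of the 10 members; UTR bases were not printed. The members, lists and tests were chosen with earlier results of these data known. All 10 members are named in each comparison; from each pathway list up to 4 genes with the largest change past the threshold could be named, and AXIN2, WNT10B and marker genes named besides were chosen after their values were seen. Intervals of read shares cover counting error only. A marker of the leukocyte list is not reported here and is left out of its sum.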

Additional observations from a re-analysis of the deposited data

Results flagged for a closer look

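The effects of the 2 lines differed, by the direct contrast of shAPT1 with APT1wt (edgeR, adjusted p at 0.05), for 6 of the 10 genes. In all 3 libraries of each line, the shAPT1 values were higher for WNT5A (log2 difference 6.08) and DKK1 (1.29). They were lower for WNT10A (-1.73), WNT9A (-0.99), WNT7B (-0.78) and WNT5B (-0.52). The filter on low counts kept WNT5A only through shAPT1, so its difference was fixed. Among all tested genes, 25.1% differed between the lines by the same test.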

How the results depend on the processing

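Over 22 alternatives per comparison, DKK1 and WNT7B in shAPT1, WNT10A in APT1wt, and DKK1 and WNT10A between the lines passed in each; the other calls were lost in at least 1, leaving aside WNT5A, whose calls the filter on low counts fixed. Depth limits WNT5A, WNT9A, WNT10A and DKK3, which rest on few reads. Genes called in shAPT1, in APT1wt and between the lines numbered 2307, 2230 and 2373 with the length offset, 2326, 2236 and 2357 on the deposited table, and 384, 364 and 357 against a change of 1.5-fold. Against that change 1 of the 10 genes passed in APT1wt (WNT10A) and 3 between the lines (WNT5A, DKK1 and WNT10A), while WNT5A, DKK1 and WNT7B passed in shAPT1. The calls of WNT5A among these were fixed by the filter, and the counts over all genes are out of 15233 in the main test. Leaving out 1 library gave 2298 to 4825 calls and 3 to 5 of the 10 genes in APT1wt. For PORCN, losses came with the 1.5-fold test, without control replicate 2 (in shAPT1), with the length offset, the deposited table, protein-coding transcripts alone (an alternative added after seeing the data) and neighbour correction, which turned its sign in APT1wt (0.051) and between the lines (-0.19).

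Other sign changes touched differences that did not pass. WLS turned in shAPT1 with the length offset (-0.051), the deposited table (-0.055) and neighbour correction (-0.026), in APT1wt with library totals alone (-0.011) and neighbour correction (-0.057), and between the lines with the length offset (-0.13) and the deposited table (-0.13). WNT3 between the lines turned with RLE scaling (-0.00040), no filter (-0.0096), the replicate block (-0.013), DESeq2 (-0.0028) and the deposited table (-0.010), and DKK3 with library totals alone (0.0066). Leaving out 1 library gave -0.14 to 0.36 for WNT10A in shAPT1, -0.019 to 0.071 for WLS in APT1wt, and between the lines -0.054 to 0.084 for WNT3, -0.026 to 0.081 for PORCN and -0.20 to 0.12 for DKK3. The cause of these changes was not tested. Neighbour correction also brought WNT3 (0.42, adjusted p = 0.041), WNT9A (-0.71, adjusted p = 0.049) and DKK3 (-0.65, adjusted p = 0.038) past the threshold in shAPT1. Correlations of same-numbered libraries were low (1 of 9 over 0.1, range -0.051 to 0.103). Such values cannot exclude a batch shared by replicate number, and the main fit used no replicate block. With a replicate block 3754, 3625 and 3872 genes were called, beside 3719, 3568 and 3829 without it. WNT9A then passed in shAPT1 (-0.71, edgeR adjusted p = 0.04) and WNT3 in APT1wt (0.38, adjusted p = 0.047).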
